A study of Mus musculus with 4 samples.

Results

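The 37 genes described here are those encoded by the mouse mitochondrial genome, taken as every row whose gene name starts with mt- among the 55487 genes of the deposited tables. They comprise 13 protein-coding genes, 2 ribosomal RNA (rRNA) genes and 22 transfer RNA (tRNA) genes. The circular mitochondrial DNA is transcribed from both strands into long precursors, and the tRNAs that lie between the longer genes are cut out to release the rRNAs and mRNAs. The 13 mRNAs encode subunits of 4 complexes of oxidative phosphorylation, complexes I, III and IV of the respiratory chain and the ATP synthase, and the 2 rRNAs and 22 tRNAs serve their translation inside the organelle. Most of the mRNAs receive short poly(A) tails, which in some of them complete a stop codon that the DNA leaves unfinished. Stretches of mitochondrial DNA have also been inserted into nuclear chromosomes, where reads from the organelle can be assigned by mistake.

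The study asked about the role of Rbfox2, an RNA-binding splicing factor, in muscle satellite cells, the resident stem cells of skeletal muscle. RNA was measured in freshly isolated satellite cells of mice labelled Control (2 libraries) and Rbfox2 cKO, a conditional knockout (2 libraries). In the knockout design, Rbfox2 flox mice were crossed with Pax7CreERT2 mice, so that tamoxifen deletes Rbfox2 where the satellite cell gene Pax7 is active, and Rosa26 EYFP marks the recombined cells with a yellow fluorescent protein. The labels do not say which of these alleles or whether tamoxifen the Control mice carried or received, nor the age or sex of the mice or whether the libraries came from separate animals. The p-values therefore measure only the spread between these libraries, which may be technical. Values below stand in the order Control 1, Control 2, cKO 1 and cKO 2 unless stated otherwise. TPM values, a measure of transcript abundance, are corrected for gene length and serve to compare genes with each other. Normalised counts (in CPM, on library sizes scaled by the TMM method) serve to compare libraries. How evenly the cDNA step captured rRNAs, tRNAs and mRNAs is not given, so TPM across these classes describes the sequenced cDNA.

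The total estimated count per library lay between 68884091 and 101997422, and the common biological coefficient of variation was 0.373. For the tRNA genes, counted far less than the longer genes, counting error also limits the precision. Rbfox2 stood at 131, 56.0, 40.0 and 15.2 CPM, lower in both cKO libraries than in either Control library (log2 fold change -1.76, SE 0.35, edgeR adjusted p = 0.000252). All 10 satellite cell markers were detected, and they summed to 25106, 23593, 17864 and 27535 CPM. Most of each sum was Sdc4, at 17663, 16442, 11862.5 and 18637 CPM, so the sums mainly follow that gene. Among the other markers, Myod1 stood at 2542, 2782, 2493 and 2913 CPM. Pax7, at 26.5, 22.7, 38.9 and 49.3 CPM, was higher in both cKO libraries than in either Control library, as were 18.0% of all genes tested. Itga7 and Cxcr4 were lower in both, as were 13.3%. These markers were named after their values were seen, and 0 of the 10 passed the test. The 12 mature fibre markers summed to 89.6, 84.7, 70.2 and 61.0 CPM. The 7 erythroid markers, of which 5 passed the test as higher in cKO, summed to 131, 289, 514 and 607 CPM. The library cKO 1 stood apart from the other 3. The median gene of the whole table was at 0.771 TPM in it and at 0.312 to 0.437 TPM elsewhere, and over 1975 olfactory and vomeronasal receptor genes the median was 0.636 against 0.230 to 0.394 TPM. It also had the lowest total count and a TMM factor of 1.27 against 0.875 to 0.965. Results on the longer mitochondrial genes that rest on cKO 1 are given below with and without it, and the part of these marker levels and library properties in them was not tested.

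Several mitochondrial genes share bases with a neighbour or with a nuclear copy, which bears on how their reads can be counted. All coordinates and sequences are those of GENCODE M21 on GRCm38. mt-Atp8 and mt-Atp6, which encode 2 ATP synthase subunits on one mRNA, overlap by 43 bases, and mt-Nd4l and mt-Nd4, which encode complex I subunits on another, overlap by 7. Both overlaps are shown with 20 flanking bases on each side, the first at chrM:7907-7989 and the second at chrM:10147-10193 on the plus strand, with the shared bases in capitals.
mt-Atp8/mt-Atp6: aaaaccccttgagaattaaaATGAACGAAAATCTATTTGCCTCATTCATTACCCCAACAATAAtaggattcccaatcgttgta
mt-Nd4l/mt-Nd4: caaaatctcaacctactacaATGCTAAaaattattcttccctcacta
The only protein-coding gene on the minus strand, mt-Nd6, shares its last 14 bases with the end of mt-Nd5 on the plus strand. Without knowledge of strand, reads from that stretch cannot be told apart. Reads of plus-strand precursors over the rest of mt-Nd6, or over a minus-strand tRNA gene, would then also count for that gene. The annotated lengths of mt-Co3 (784 bases), mt-Nd4 (1378 bases) and mt-Cytb (1144 bases) each leave 1 base over a multiple of 3, so their last codon is incomplete in the DNA.

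A block of chromosome 1 on the minus strand, chr1:24611535-24616197, holds 7 annotated unprocessed pseudogenes that copy mt-Co1 (Gm29216), mt-Co2 (Gm28661), mt-Atp6 (Gm10925), mt-Co3 (Gm28437), mt-Nd3 (Gm28438), mt-Nd4l (Gm10222) and mt-Nd4 (Gm28439). Over the bases they share with the mitochondrial gene, 5 of the 7 had 0 differences. The first 60 bases of mt-Co3 (chrM:8607-8666, plus strand) and of Gm28437 (chr1:24613912-24613971, minus strand) are shown because a read from here fits both equally.
mt-Co3: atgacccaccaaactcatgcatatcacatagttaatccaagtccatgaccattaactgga
Gm28437: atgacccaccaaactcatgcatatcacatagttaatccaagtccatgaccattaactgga
Gm29216 covers the last 492 of the 1545 bases of mt-Co1 and differs from it at 6 positions near its start. Counted from the first base of mt-Co1, these are T1056A, C1057T, A1059G, A1060G, C1062A and A1066T, with the mitochondrial base first. The windows chrM:6381-6413 and chr1:24616165-24616197 (minus strand) carry the differing bases in capitals.
mt-Co1: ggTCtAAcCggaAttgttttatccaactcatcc
Gm29216: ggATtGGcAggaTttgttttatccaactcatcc
Gm28438 covers 345 of the 348 bases of mt-Nd3 and differs by T3C, counted from the first base of mt-Nd3. It is shown in capitals at chrM:9459-9481 and chr1:24613097-24613119 (minus strand).
mt-Nd3: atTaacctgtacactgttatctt
Gm28438: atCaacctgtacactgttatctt

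The deposited counts of the 4 pairs that match over nearly the whole gene with 0 differences were split almost evenly. The copy held 49.5% to 49.6% of the summed counts of the mt-Co2 pair, 50.3% to 50.8% for mt-Atp6 and 49.97% to 50.06% for mt-Co3 over the 4 libraries. For mt-Nd4l the copy's part was 47.8% to 48.9%, and for mt-Nd3, with its single difference, 41.8% to 43.0%. The shorter copies took less: 14.7% to 17.0% for mt-Co1 and 22.05% to 24.2% for mt-Nd4. Less similar copies on chromosome 2 had few counts. Gm13340, which has the length of mt-Co1 but shares 27.5% of its own 50-base words with it, was counted 3371, 2921, 2307 and 3984 times, against 1002986, 1025629, 723212 and 1382721 for mt-Co1 itself. The deposited values of these 7 mitochondrial genes therefore hold only part of the reads that match them, and their levels are uncertain. Only annotated genes were searched for copies. Whether unannotated stretches of the block also match mt-Atp8 or the tRNA genes that lie between these genes was not tested. The plot of the counts given to the chromosome 1 copies shows that each pair was split in about the same way in all 4 libraries.

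**Figure D1:**
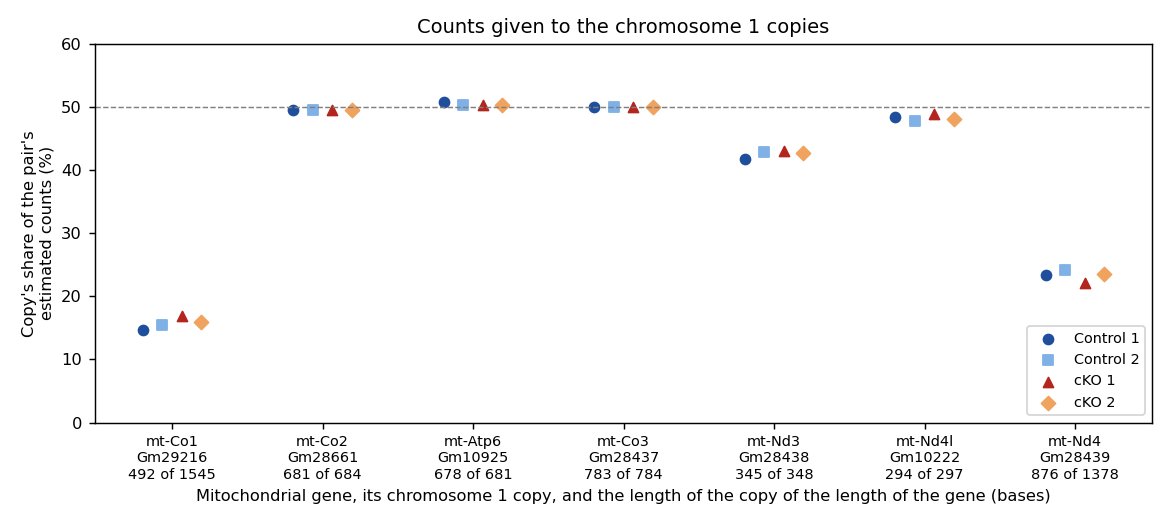
The share of each pair's summed estimated counts that was assigned to the chromosome 1 copy (vertical axis, %), for 7 mitochondrial genes and 4 libraries; under each gene stand its copy and the length of the copy of the length of the gene in bases. The dashed line marks an even split; the copies of mt-Co2, mt-Atp6 and mt-Co3 lie within 1 percentage point of it in every library.

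Mitochondrially encoded RNA made up about the same part of 3 libraries and a smaller part of cKO 1. The 37 genes held 5.20%, 5.19%, 3.95% and 5.37% of all estimated counts, or 5.19% ± 0.00748 in Control and 4.66% ± 1.01 in cKO (SD, n = 2 each). The cKO range enclosed both Control values, and the exact two-sided permutation test over 4 libraries gave p = 1, where the smallest p it can give is 0.333. Without cKO 1, the cKO value lay 0.178 percentage points above the Control mean, and without cKO 2 it lay 1.24 points below. Counting error was far smaller, with 95% exact binomial intervals of at most 0.00472 points to either side, which cover counting error only. In bulk RNA, fewer cells rich in mitochondria, less mitochondrial RNA per cell and more nuclear RNA per cell cannot be told apart.

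By RNA class, the protein-coding genes held 4.20%, 4.26%, 3.33% and 4.47% of the counts, so that cKO 2 was the highest library and cKO 1 the lowest. The 2 rRNA genes held 0.991%, 0.929%, 0.616% and 0.893%, with both cKO libraries below both Control libraries, although cKO 2 was close to Control 2 (exact permutation p = 0.333, the smallest possible). The 22 tRNA genes held 0.00587%, 0.00467%, 0.00505% and 0.00499%, and the groups overlapped. Adding the 7 chromosome 1 copies raised the share of mitochondrial sequence to 6.45%, 6.47%, 4.96% and 6.67% with cKO 1 again the lowest library and cKO 2 the highest. On the TPM scale the 37 genes held 9.05%, 9.001%, 6.97% and 9.27% of the sum.

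**Figure D2:**
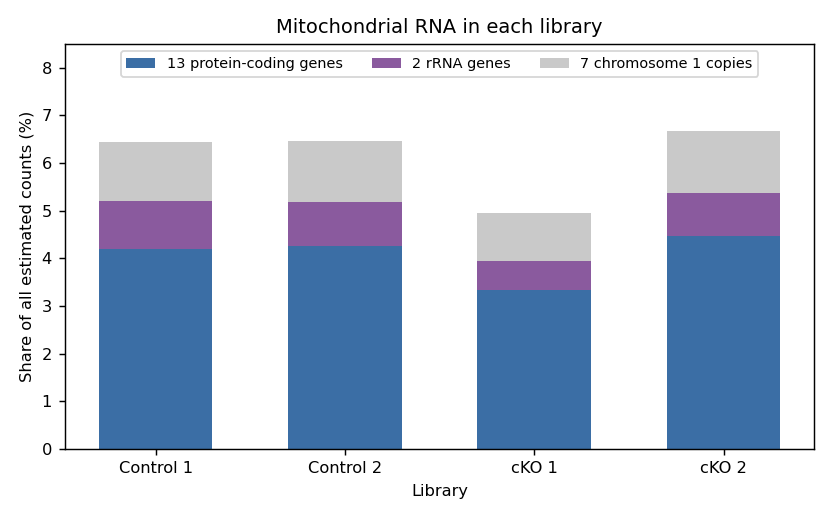
Share of all estimated counts (vertical axis, %) in each of the 4 libraries, stacked for the 13 protein-coding genes, the 2 rRNA genes and the 7 chromosome 1 copies; the tRNA share, under 0.006% in each library, is too small to draw. The stack of cKO 1 ends at 4.96% and those of the other libraries at 6.45% to 6.67%.

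The levels of the single genes, per length, spanned a wide range. The large-subunit rRNA mt-Rnr2 (chrM:1094-2675) stood at 10773, 9881, 6632 and 9578 TPM. The small-subunit rRNA mt-Rnr1 (chrM:70-1024), which lies upstream of it on the same strand, stood at 783, 792, 604 and 797 TPM. Although both rRNAs are parts of one ribosome, mt-Rnr2 was 11.0 to 13.8 times as high as mt-Rnr1 in TPM. Whether both were captured alike in the cDNA was not tested. In normalised counts the log2 fold change of cKO against Control was -0.43 (SE 0.42) for mt-Rnr2 and -0.26 (SE 0.37) for mt-Rnr1, neither past the test (edgeR adjusted p = 1.00).

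Complex I, which takes electrons from NADH, has 7 mitochondrially encoded subunits. mt-Nd1 (chrM:2751-3707) was the highest of them in the deposited rows, at 10632, 10293, 7865 and 10681 TPM. It was followed by mt-Nd4 (chrM:10167-11544) at 3782, 3613, 2371 and 3507 TPM and mt-Nd5 (chrM:11742-13565), the longest mitochondrial gene, at 2179, 2026, 1534 and 2027 TPM. With their copies added, mt-Nd4 came to 4936, 4769, 3042 and 4589.5 TPM and mt-Nd4l, which shares its mRNA, to 3065, 3048, 2278 and 2843 TPM, above mt-Nd5. For mt-Nd1, mt-Nd4 and mt-Nd5 cKO 1 was the lowest library, and cKO 2 lay within or near the Control range. The deposited rows of the remaining 4 stood below mt-Nd5. The row of mt-Nd4l (chrM:9877-10173) had 1581, 1592, 1163 and 1474 TPM. mt-Nd2 (chrM:3914-4951) had 1302, 1312, 933 and 1178 TPM, and it was the only protein-coding gene whose cKO libraries both lay below both Control libraries also in normalised counts. mt-Nd6 (chrM:13552-14070), the gene on the minus strand, had 1185, 1081, 833 and 1063 TPM. mt-Nd3 (chrM:9459-9806) had 686, 682, 444 and 629.6 TPM, or 1179.9, 1193, 779 and 1098 TPM with its copy Gm28438 added.

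Complex III, which passes electrons to cytochrome c, has 1 mitochondrially encoded subunit, cytochrome b. Its gene mt-Cytb (chrM:14145-15288) stood at 12664, 12833, 9993 and 14372 TPM, with cKO 2 the highest library and cKO 1 the lowest. Complex IV, cytochrome c oxidase, has 3. Its catalytic subunit gene mt-Co1 (chrM:5328-6872) was the highest of all members when rows were taken as deposited, at 13732, 13702, 12208 and 15635 TPM. The groups overlapped for both genes. mt-Co2 (chrM:7013-7696) stood at 5247, 4992, 4053 and 5272 TPM and mt-Co3 (chrM:8607-9390) at 5817, 5550.4, 4579 and 5821 TPM, about as high as their copies Gm28661 and Gm28437. With the copies added, mt-Co2 came to 10407, 9894, 8039 and 10451 TPM and mt-Co3 to 11648, 11096, 9154 and 11637 TPM, which brought them close to mt-Nd1 and mt-Rnr2.

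The ATP synthase, which makes ATP from the proton gradient, has 2 mitochondrially encoded subunits. mt-Atp6 (chrM:7927-8607), part of its proton channel, stood at 12069, 12884, 9558 and 12171 TPM alone and at 24539.6, 25906, 19214 and 24492 TPM with its copy Gm10925, which made it the highest gene of the mitochondrial genome in all 4 libraries. mt-Atp8 (chrM:7766-7969) stood at 6561, 7602, 5608 and 7272 TPM. The ratio of mt-Atp8 to mt-Atp6, whose coding sequences overlap on one mRNA, was 0.544, 0.590, 0.587 and 0.598 for the deposited rows and 0.267, 0.293, 0.292 and 0.297 with the copy added. That of mt-Nd4l to mt-Nd4 was 0.418, 0.441, 0.491 and 0.420, and 0.621, 0.639, 0.749 and 0.619 with both copies added. These 2 ratios were chosen after their values were seen. No annotated copy of mt-Atp8 was found, so adding the copy changed only mt-Atp6 in its ratio and lowered that ratio for this reason.

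**Figure D3:**
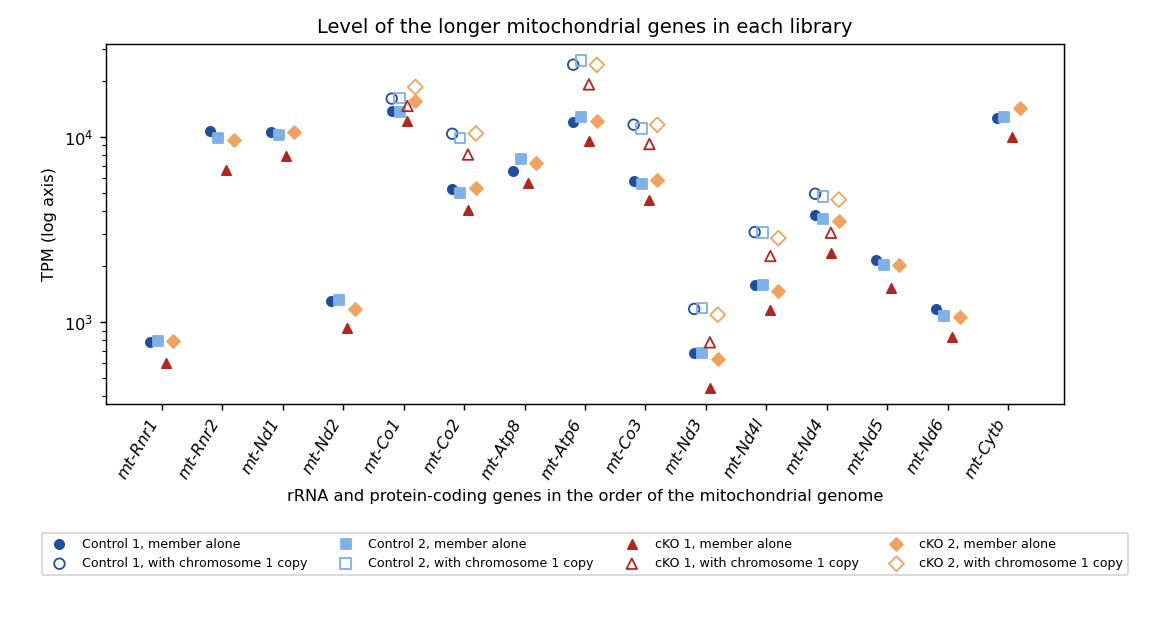
TPM of the 2 rRNA and 13 protein-coding genes (log axis) in genome order, 1 point per library; filled points are the deposited rows and open points have the chromosome 1 copy added, scaled by its length. The triangles of cKO 1 are the lowest filled point of each of the 15 genes, and mt-Atp6 with its copy, at 19214 to 25906 TPM, is the highest.

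No mitochondrially encoded gene passed the test between the groups. Of 36 members that passed the filter on low counts, edgeR's quasi-likelihood test called 0 with a Benjamini-Hochberg adjusted p under 0.05, where 210 of all 38143 genes tested, or 0.551%, were called (139 higher and 71 lower in cKO, or 66 and 53 with DESeq2's size factors). No member had an unadjusted p under 0.05 either, against 4.83% of all genes tested, and DESeq2, which called 0.252% of all genes, also called 0 members. The member left out was mt-Ts2, with counts of 1, 2, 1 and 1. The smallest unadjusted p among members was 0.159, that of mt-Tp.

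The direction was the same across the longer genes. All 13 protein-coding genes and both rRNAs had a log2 fold change below 0, as had 16 of 21 tRNAs and 45.0% of all genes tested, except that mt-Co1 was at 0.01 and 14 tRNAs were below 0 on library totals without TMM. That scaling moved the median of all genes tested from 0.06 to 0.25. The median was -0.30 for the protein-coding genes, -0.35 for the rRNAs and -0.19 for the tRNAs, each below the 0.06 over all genes tested. On library totals these medians were -0.21, -0.27 and -0.08, and with a filter of at least 5 CPM in 2 libraries, which only 3 tRNAs passed, the tRNA median was -0.37. The protein-coding genes ranged from -0.43 (SE 0.35) for mt-Nd3 to -0.08 (SE 0.43) for mt-Co1, with none farther than 2 SE from 0. The fold changes of mt-Nd4, -0.41 (SE 0.40), and of mt-Nd2, -0.41 (SE 0.38), were next to that of mt-Nd3, and mt-Cytb, at -0.15 (SE 0.42), was next to mt-Co1. The 13 genes share libraries and precursors, so their common sign is not 13 separate observations.

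In normalised counts, that direction of the longer genes came from cKO 1. Without cKO 1, only mt-Nd2 among them kept its sign, at a log2 fold change of -0.02. In cKO 1, 13 of 13 protein-coding genes, 2 of 2 rRNAs and 14 of 21 tRNAs lay below both Control libraries in normalised counts, as did 29.9% of all genes tested. In cKO 2, 9 of the 13 protein-coding genes lay above both Control libraries (34.1% of all genes tested), 3 lay between them and 1, mt-Nd2, lay below both (38.4%). The median log2 ratio to the Control mean over the protein-coding genes was -0.84 in cKO 1, with a range of -1.07 to -0.59, and 0.08 in cKO 2, with a range of -0.03 to 0.30. For the rRNAs these medians were -0.94 and 0.07, and for the tRNAs -0.46 and 0.02. Over all genes tested with a Control value above 0 they were 0.17 and -0.05.

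The values of both cKO libraries depended on the scaling, which shifts all genes of a library alike. In cKO 2 the protein-coding median of 0.08 became -0.04 on library totals and -0.04 on TPM, with 7 of the 13 genes below the Control mean on each of these scales. On library totals without TMM, the protein-coding median in cKO 1 was -0.43 and that of all genes 0.58, and the difference between these 2 medians was -1.01 under both scalings. On TPM the protein-coding median was -0.41, and its difference from the median of 17207 genes that averaged 1 TPM or more and had a Control value above 0 was -0.69. The deviation of cKO 1 followed the level of a gene over the whole table. Genes with a mean under 1 CPM had a median of 0.43, those of 1 to 10 CPM 0.11, those of 10 to 100 CPM -0.34, and the 1764 genes of 100 CPM or more -0.50. Of the latter, 1566 were below the Control mean in cKO 1. The protein-coding members, at 123 to 12221 CPM on average, belong to this highest group, and their median lay below its median. What part library composition had in the low values of cKO 1 was not tested.

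**Figure D4:**
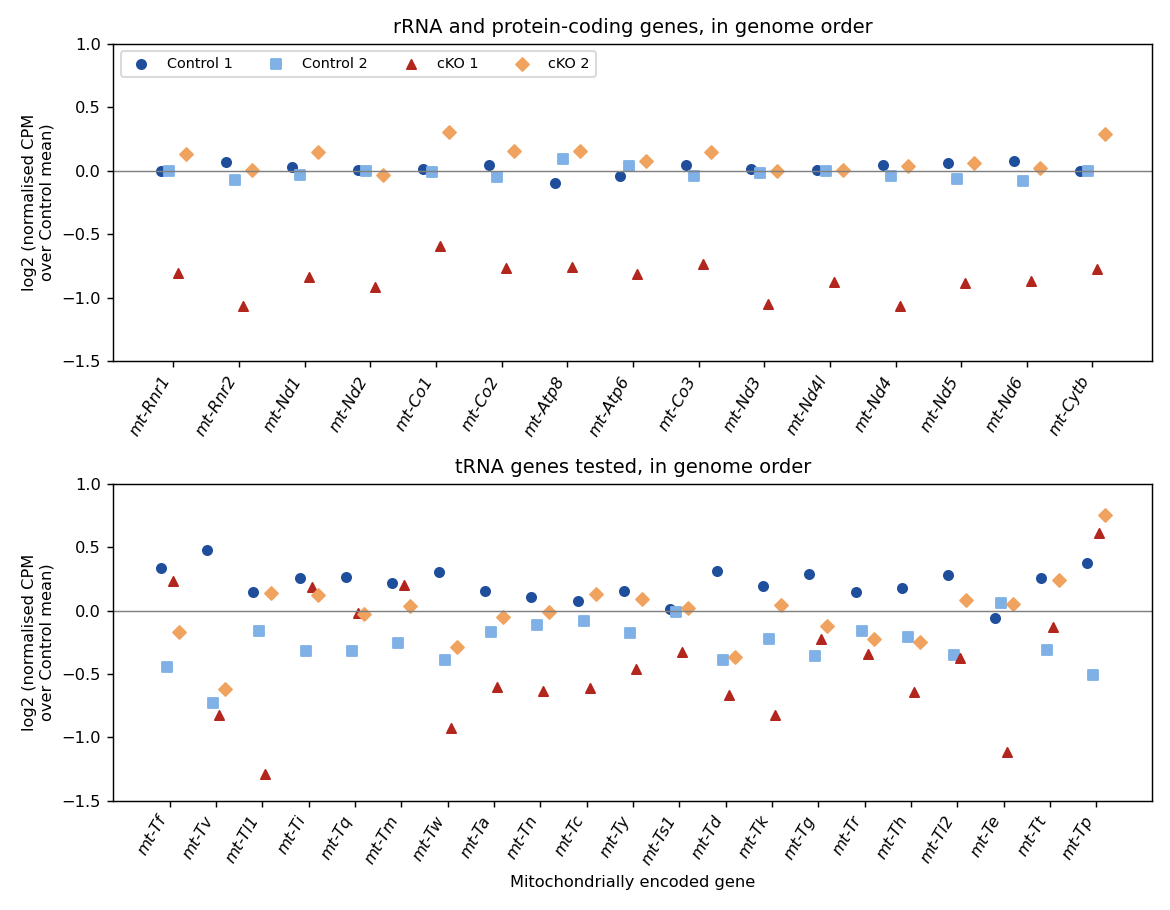
Log2 ratio of each library's normalised CPM to the Control mean (vertical axis) for the 15 longer genes (top) and the 21 tRNA genes tested (bottom), in genome order. In the top panel every triangle of cKO 1 lies between -1.07 and -0.59 and every diamond of cKO 2 between -0.03 and 0.30. In the bottom panel cKO 1 lies below both Control libraries for 14 of the 21 genes, and Control 1 lies above Control 2 for 20.

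Leaving out 1 library changed the calls. Without cKO 2, with cKO 1 as the only knockout library and its spread taken from the others, 17 members were called lower (edgeR adjusted p 0.000445 to 0.0401), namely all 13 protein-coding genes, both rRNAs, mt-Tl1 and mt-Te. Their log2 fold changes ran from -1.36 to -0.66, and 5.39% of all genes were called in that fit. Without cKO 1, 0 members were called, where 2.26% of all genes were, and the protein-coding median was 0.09.

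The deposited TPM gave a like result. With limma on log2(TPM + 1), 0 of 36 members were called, as against 0.308% of the 17210 genes that averaged 1 TPM or more. Before adjustment 2 members, mt-Nd2 and mt-Tp, were under 0.05, against 14.9% of all genes. Their log2 differences were -0.32 (limma adjusted p = 0.321) and 0.88 (limma adjusted p = 0.253). Left-out libraries moved this count to 2 called tRNAs, mt-Ti and mt-Tp higher without Control 1 (2.41% of all genes called) and mt-Tv and mt-Tw lower without Control 2 (3.45%). Differences on this scale understate those of low genes. In TPM, both cKO libraries lay below both Control libraries for 10 members (15.7% of all genes tested) and above them for 1, mt-Tp (32.0%). The 10 were mt-Rnr2, the complex I genes mt-Nd2, mt-Nd3, mt-Nd4l, mt-Nd4 and mt-Nd6, and the tRNAs mt-Tw, mt-Ta, mt-Tn and mt-Th. In normalised counts the groups were apart for 3 lower members, mt-Nd2, mt-Tr and mt-Th (13.3%), and 1 higher, mt-Tp (18.0%). The members in these counts other than the proteins and rRNAs were singled out after their values were seen.

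The tRNA genes are 59 to 75 bases long and were counted far less than the others. Reads from cut tRNAs, from uncut precursors and from neighbouring genes were not told apart on these tRNA genes. Their sequences are shown for the 6 with the highest mean CPM, 5′ to 3′ along each gene's own strand, with the anticodon in capitals. They carry leucine (mt-Tl1), methionine (mt-Tm), glutamate (mt-Te), isoleucine (mt-Ti), glutamine (mt-Tq) and cysteine (mt-Tc). Their positions are chrM:2676-2750, chrM:3845-3913 and chrM:3706-3774 on the plus strand and chrM:14071-14139, chrM:3772-3842 and chrM:5192-5257 on the minus strand.
mt-Tl1: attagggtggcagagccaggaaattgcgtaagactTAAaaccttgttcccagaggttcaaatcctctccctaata
mt-Tm: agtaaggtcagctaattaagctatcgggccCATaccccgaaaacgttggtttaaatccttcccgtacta
mt-Te: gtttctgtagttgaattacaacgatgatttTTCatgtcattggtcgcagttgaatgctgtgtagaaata
mt-Ti: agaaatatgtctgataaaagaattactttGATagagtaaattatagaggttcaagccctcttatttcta
mt-Tq: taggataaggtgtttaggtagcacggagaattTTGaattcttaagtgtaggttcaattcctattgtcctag
mt-Tc: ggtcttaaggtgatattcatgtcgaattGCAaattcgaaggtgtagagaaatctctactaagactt
mt-Tl1 lies between mt-Rnr2 and mt-Nd1 with no base between the genes. mt-Te lies next to mt-Nd6 on the minus strand. mt-Ti, mt-Tq and mt-Tm form a cluster between mt-Nd1 and mt-Nd2, in which mt-Tq lies on the other strand and shares 3 bases with mt-Ti.

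mt-Tl1 was counted 1062, 892, 431 and 1189 times, or 299, 245, 149.6 and 277 TPM, the highest of the tRNAs. As in the longer genes beside it, cKO 1 was low, with a log2 ratio of -1.29 to the Control mean, and cKO 2 lay within the Control range at 0.14. mt-Te, at 149, 164, 97.0 and 149.5 TPM, was likewise low in cKO 1 (-1.11) and not in cKO 2 (0.05). The cluster of 3 differed. mt-Tm stood at 156, 114, 209 and 128 TPM, mt-Ti at 108, 73.7, 139 and 91.8 TPM and mt-Tq at 89.0, 60.1, 99.1 and 67.6 TPM. In all 3, cKO 1 was the highest library in TPM and Control 2 the lowest, and in normalised counts cKO 1 lay within the Control range. mt-Tc, at 76.0, 68.9, 63.7 and 73.5 TPM, was lowest in cKO 1.

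The log2 fold changes of these 6 tRNAs lay between -0.42 (SE 0.33) for mt-Te and 0.16 (SE 0.35) for mt-Ti, with an edgeR adjusted p of 1.00 for each. Among the other tRNAs, mt-Tp, which carries proline and ends the set at chrM:15356-15422 on the minus strand, had counts of 112, 63, 145 and 164 and 35.1, 19.4, 56.4 and 42.7 TPM. It was the only member higher in both cKO libraries than in both Control libraries in normalised counts (1.41, 0.764, 1.67 and 1.84 CPM), with a log2 fold change of 0.69 (SE 0.49). It was singled out after its values were seen, and Control 1 lay closer to the cKO libraries than to Control 2. mt-Tv, the valine tRNA between the rRNA genes, had counts of 160, 72, 71 and 84, with Control 1 apart from the other 3 libraries. Control 1 exceeded Control 2 in 20 of the 21 tRNAs tested in normalised counts. Across the 36 members tested, the log2 level and the log2 ratio of cKO 1 to the Control mean had r = -0.49 and Spearman's rho = -0.47. For cKO 2 these were of the opposite sign, at r = 0.34 and rho = 0.47. Both are a description over genes that share libraries and precursors.

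Relative levels within the mitochondrial transcripts do not depend on library totals. They describe the sequenced cDNA, in which rRNAs, tRNAs and mRNAs may have been captured unevenly. The ratio of rRNA to protein-coding TPM was 0.149, 0.137, 0.118 and 0.128, lower in both cKO libraries than in either Control library. The ratio of mt-Rnr2 to mt-Rnr1 was 13.8, 12.5, 11.0 and 12.0, and that of the minus-strand mt-Nd6 to the 12 plus-strand protein-coding genes was 0.0155, 0.0140, 0.0138 and 0.0133. Both were also lower in both cKO libraries. The strand setting of the counts is not given, so mt-Nd6 may hold reads from plus-strand RNA. The ratio of tRNA to protein-coding TPM was 0.0194, 0.0150, 0.0213 and 0.0156, with groups that overlapped. The first 3 ratios had an exact permutation p of 0.333 each, the smallest that 2 against 2 libraries allow (0.444 after adjustment over the 4 ratios), and the last had p = 0.667. The gap between Control 2 and the nearest cKO library was small in each of the 3. With the copies added, the ratio of rRNA to protein-coding TPM was 0.109, 0.0995, 0.0862 and 0.0941.

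As a share of the members' summed TPM, 2 protein-coding genes were higher in both cKO libraries and 6 were lower. mt-Co1 made up 15.2, 15.2, 17.5 and 16.9% of the sum, and mt-Cytb made up 14.0, 14.3, 14.3 and 15.5%. For these 2 genes each cKO library exceeded each Control library, for mt-Cytb by little in cKO 1. The 6 lower genes were all complex I subunits. mt-Nd4 made up 4.18, 4.01, 3.40 and 3.78%, mt-Nd5 2.41, 2.25, 2.20 and 2.19% and mt-Nd4l 1.75, 1.77, 1.67 and 1.59%. mt-Nd2 made up 1.44, 1.46, 1.34 and 1.27%, mt-Nd6 1.31, 1.20, 1.19 and 1.15% and mt-Nd3 0.758, 0.757, 0.637 and 0.679%. The seventh complex I gene, mt-Nd1, made up 11.7, 11.4, 11.3 and 11.5%, and its groups overlapped, as did those of mt-Co2, mt-Co3, mt-Atp6 and mt-Atp8.

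Of the 2 rRNAs, mt-Rnr2 was lower, at 11.9, 11.0, 9.52 and 10.3%, and of the 22 tRNAs 1 was lower, mt-Te, and 1 higher, mt-Tp. Divided by the same sum, 4.29% of all genes tested were lower in both cKO libraries and 33.8% higher. The sum was lowest in cKO 1, which raises other genes divided by it there, while the members' own shares always add up to the sum. Both percentages are therefore not a like background for the members. Shares of one sum are tied to each other, so a gain of mt-Co1 lowers the rest. The ratio of mt-Co1 to mt-Rnr2, chosen after the values were seen, was 1.27, 1.39, 1.84 and 1.63, and 1.49, 1.64, 2.22 and 1.94 with the copy added. The reads that decide mt-Co1 are in part those that Gm29216 can take, but the order of the libraries was the same with and without it.

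The nuclear genes that serve mitochondrial gene expression were examined in 5 lists, of which 84 genes were tested and 0 were called. An unadjusted p under 0.05 was reached by 5, which are named for that alone: Mterf4 (log2 difference of -0.72, SE 0.32), 1110008L16Rik (log2 difference of -0.67, SE 0.32), Cdk5rap1 (log2 difference of -0.91, SE 0.37), Polg2 (log2 difference of 0.71, SE 0.33) and Fastk (log2 difference of 0.93, SE 0.33). Their edgeR adjusted p lay between 0.353 and 0.938. The median log2 fold change of the 84 was -0.10, or 0.04 on library totals without TMM, where that of all genes tested was 0.25. In normalised counts their median log2 ratio to the Control mean was -0.36 in cKO 1 and 0.09 in cKO 2. Both cKO libraries lay below both Control libraries for 15 of the 84 (13.3% of all genes tested) and above them for 10 (18.0%). None of the single genes given below passed the test (edgeR adjusted p = 1.00 for each).

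Of 20 genes for mitochondrial transcription and mtDNA maintenance, 10 had a log2 fold change below 0, and on library totals 9 did. Tfam, which packages the DNA and opens its promoters, stood at 109, 112, 62.9 and 98.6 CPM, with a log2 fold change of -0.45 (SE 0.34). It was lower in both cKO libraries than in either Control library. Tfb2m, the transcription initiation factor, stood at 112, 98.1, 51.8 and 80.8 CPM, lower in both cKO libraries than in either Control library (log2 difference of -0.67, SE 0.34). Polg, the catalytic subunit of the mitochondrial DNA polymerase, stood at 60.9, 87.1, 90.7 and 109 CPM, with the opposite sign (log2 difference of 0.43, SE 0.34). Polg was higher in both cKO libraries than in either Control library. Of 21 genes for RNA processing and degradation, 18 were below 0 (16 on library totals), and the median was -0.29. Trmt10c, a subunit of the enzyme that cuts the 5′ ends of the tRNAs from the precursors, stood at 146, 131, 73.0 and 116 CPM (log2 difference of -0.56, SE 0.35), with both cKO libraries below both Control libraries. Pde12, a phosphodiesterase that removes poly(A), stood at 165, 135, 112 and 157 CPM, and Tbrg4, of the FASTK family of mitochondrial RNA-binding proteins, at 81.7, 85.0, 67.4 and 88.9 CPM. For both of these the groups overlapped.

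Of 20 genes for rRNA and tRNA modification, 14 were below 0 (7 on library totals), with a median of -0.06. Trnt1, which adds the CCA end to tRNAs, stood at 102, 86.2, 43.1 and 77.3 CPM, lower in both cKO libraries (log2 difference of -0.65, SE 0.34). The tRNA-modifying enzymes Nsun2, a methyltransferase, and Pus1, a pseudouridine synthase, stood at 281, 428, 274 and 403 and at 38.2, 42.3, 43.3 and 41.2 CPM. Of 13 translation factors, 9 were below 0 (5 on library totals), with a median of -0.08. The elongation factor genes Tufm and Gfm1 stood at 28.9, 26.8, 24.4 and 28.5 and at 34.3, 28.2, 17.8 and 27.7 CPM, and Mrrf, the ribosome recycling factor, at 34.4, 33.3, 26.9 and 33.7 CPM. Gfm1 was lower in both cKO libraries than in either Control library, while Tufm and Mrrf overlapped.

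Of 10 regulators of mitochondrial biogenesis, 5 were below 0 (3 on library totals), with a median of -0.01. Pprc1, a coactivator of the PGC-1 family, stood at 212, 95.0, 228 and 233 CPM, with Control 2 apart from the other 3 libraries. Gabpa and Gabpb1, the subunits of the transcription factor NRF-2, stood at 151, 131, 75.8 and 127 and at 126, 73.4, 54.3 and 83.2 CPM, with cKO 1 the lowest library in each. Gabpa was lower in both cKO libraries than in either Control library, while Gabpb1 overlapped.

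The nuclear subunits of the same complexes were also lower in cKO 1 than in cKO 2 at their median. Of 78 nuclear subunit genes of complexes I to V tested, 0 were called and 0 had an unadjusted p under 0.05, and 74 had a log2 fold change below 0 (63 on library totals). Their median was -0.28, or -0.16 on library totals, beside -0.30 and -0.21 for the mitochondrially encoded proteins. Against the Control mean, the nuclear subunits had a median of -0.57 in cKO 1 and -0.05 in cKO 2, where the mitochondrially encoded proteins had -0.84 and 0.08. In cKO 2, 45 of the 78 nuclear subunits and 2 of the 13 mitochondrially encoded proteins lay below the Control mean. Both cKO libraries lay below both Control libraries for 35 of the 78 and for 1 of the 13, where 13.3% of all genes did. The difference between the 35 of 78 and the 1 of 13 was not tested. The 13.3% covers genes of all levels, and no such share was taken at a like level. Of 6075 genes of 10 to 100 CPM, 4682 lay below the Control mean in cKO 1 and 2148 in cKO 2. Of 1764 genes of 100 CPM or more, 1566 and 744 did, beside 74 and 45 of the 78 nuclear subunits. By complex, the medians in cKO 1 lay between -0.62 (complex III, 9 genes) and -0.52 (complex II, 4 genes, which has no mitochondrially encoded subunit). The median of complex I (36 genes) was -0.55, that of complex IV (15 genes) -0.54 and that of the ATP synthase (14 genes) -0.59.

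**Figure D5:**
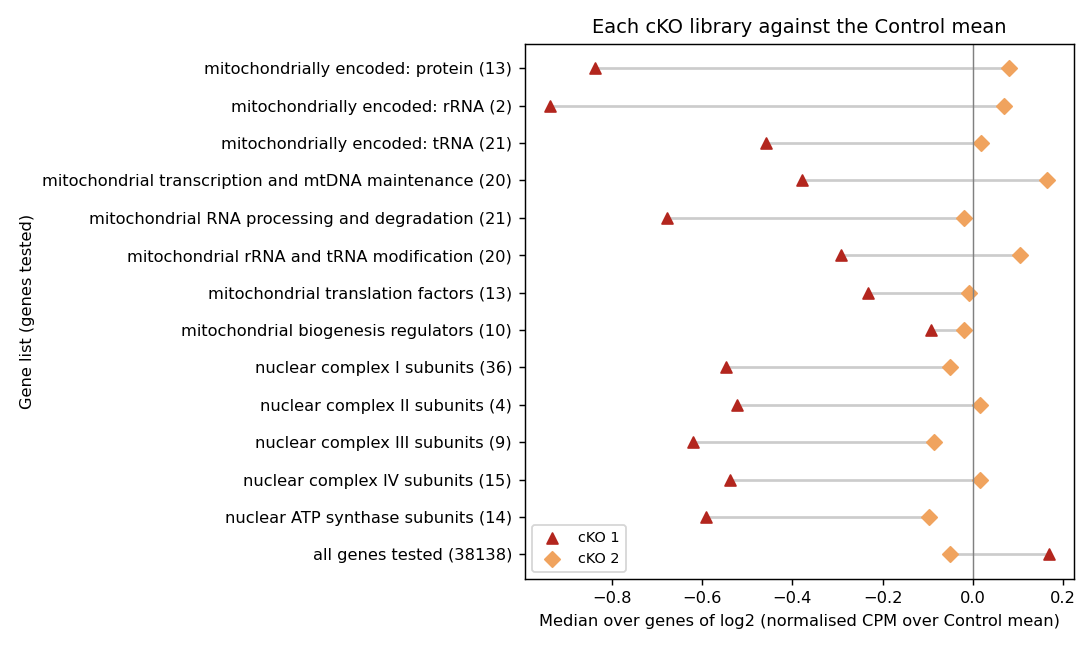
Median over genes of the log2 ratio of normalised CPM to the Control mean (horizontal axis) in cKO 1 (triangles) and cKO 2 (diamonds), for the members by RNA class, the lists of nuclear genes and all genes tested; the number of genes is in brackets. The medians of cKO 1 lie below those of cKO 2 in all 13 lists, from -0.94 for the rRNAs to -0.09 for the biogenesis regulators, and above that of cKO 2 only over all genes tested. All genes tested are not drawn by level. Their medians in cKO 1 and cKO 2 were 0.43 and -0.30 under 1 CPM and 0.11 and 0.09 at 1 to 10 CPM. They were -0.34 and 0.12 at 10 to 100 CPM, and -0.50 and 0.06 at 100 CPM or more.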

How the data were processed

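Satellite cells gave 4 libraries of total RNA. Per the labels' protocols, a low-input column kit was used for extraction, each library started from 10 ng, and SMART-Seq cDNA was turned into libraries with a kit from MGI. HISAT2 2.1.0, StringTie 1.3.6 and GRCm38 appear in the submitters' processing notes without a stated role. Strand setting, annotation release, filters and the treatment of reads that match several places: not given in the sources used here. The deposited table of estimated counts holds whole numbers per gene, and a second deposited table holds TPM per gene, a unit that keeps no depth. Of 55487 gene identifiers, 55394 matched GENCODE M21 on GRCm38, which gave positions, sequences and nuclear copies. A copy was taken as an annotated gene that shares at least 90% of its own 50-base words with a mitochondrial gene.

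The edgeR 4.0.16 quasi-likelihood test in R 4.3.3 (TMM, filterByExpr, robust) was run on the estimated counts over all genes, with Benjamini-Hochberg adjustment and a threshold of 0.05. For TPM, limma 3.58.1 with the trend and robust options was run on log2(TPM + 1), leaving out genes that averaged under 1 TPM. Shares and ratios, 1 value per library, were compared by an exact two-sided permutation test in Python 3.11.15. The scripts were tested on simulated data. Alternatives were other scalings, filters and pseudocounts, DESeq2 1.42.0, a replicate block, added copies and each library left out. All protein-coding and rRNA members are named, with the 6 tRNAs of highest mean CPM and, from each list for mitochondrial gene expression, the 3 of highest mean CPM. The members and lists were chosen with earlier results of these data known. In the library codes of the labels, one part is shared within a group and differs between the groups, so what it marks cannot be told apart from genotype. Another part is shared by same-numbered libraries of both groups, and the labels do not say what it marks.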

Additional observations from a re-analysis of the deposited data

How the results depend on the processing

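With 2 libraries a group, of which cKO 1 stood apart, the direction of the longer genes in TMM-normalised counts rested on cKO 1. Without cKO 1 only mt-Nd2 among them kept its sign, at -0.02. Most tRNA values rested on low counts. Over the 4 fits that left out 1 library each, in which a lone library was assumed to vary like the others, the genes called over the whole table ran from 51 (without Control 1) to 2267 (without cKO 2), with 56 without Control 2 and 896 without cKO 1. The members called ran from 0 to 17, the protein-coding median from -0.91 to 0.092, the rRNA median from -1.01 to 0.082 and the tRNA median from -0.53 to 0.029. With limma on TPM, 0 to 2 members were called. The difference in shares ran from -0.900 to 0.245 percentage points for the protein-coding genes, from -0.000850 to 0.000356 for the tRNAs and from -1.24 to 0.178 for all members. That of the ratio of tRNA to protein-coding TPM ran from -0.00159 to 0.00410. Other differences kept their sign. They ran from -0.344 to -0.0667 points for the rRNA share and from -0.0261 to -0.0134 for the ratio of rRNA to protein-coding TPM. The ratio of mt-Rnr2 to mt-Rnr1 differed by -2.25 to -0.976, and that of mt-Nd6 to the plus-strand protein-coding genes by -0.0020 to -0.000489.

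The genes called over the whole table were 119 with DESeq2's size factors, 28 without a filter, 14 with at least 5 CPM in 2 libraries and 96 with DESeq2. A part of the library codes ties the same-numbered libraries of both groups, but the labels do not say what it marks or that the numbers pair libraries. With them as a replicate block 96 genes and 0 members were called, and mt-Tq came to 0.0059. The deviations of same-numbered libraries had a correlation of -0.12, and a block that crossed the numbers called 243 genes. On library totals, mt-Co1 came to 0.015, mt-Tq to 0.15, Tbrg4 to 0.043, Nsun2 to 0.051 and Tufm to 0.077. With at least 5 CPM, Tbrg4 came to 0.0090, Nsun2 to 0.020 and Tufm to 0.042. Pus1 came to -0.0017 with DESeq2's size factors and with DESeq2. The cause of these changes was not tested.

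Leaving out 1 library each, these log2 fold changes changed sign. mt-Tq ran from -0.31 to 0.28, Pus1 from -0.017 to 0.12, mt-Tm from -0.12 to 0.36, mt-Ti from -0.12 to 0.46, Nsun2 from -0.44 to 0.25, mt-Rnr1 from -0.88 to 0.14 and mt-Rnr2 from -1.13 to 0.019. mt-Nd1 ran from -0.91 to 0.16, mt-Co1 from -0.66 to 0.32, mt-Co2 from -0.83 to 0.17, mt-Atp8 from -0.83 to 0.17, mt-Atp6 from -0.88 to 0.092, mt-Co3 from -0.81 to 0.16 and mt-Nd3 from -1.12 to 0.0084. mt-Nd4l ran from -0.94 to 0.022, mt-Nd4 from -1.14 to 0.051, mt-Nd5 from -0.95 to 0.075, mt-Nd6 from -0.94 to 0.035, mt-Cytb from -0.85 to 0.30, mt-Tl1 from -1.36 to 0.15 and mt-Te from -1.18 to 0.062. mt-Tc ran from -0.68 to 0.15, Pde12 from -0.49 to 0.083, Tbrg4 from -0.38 to 0.11, Tufm from -0.26 to 0.046 and Mrrf from -0.40 to 0.0033. Other values kept their sign in all 4 fits but changed in size. mt-Nd2 ran from -0.98 to -0.02, Tfam from -0.88 to -0.15, Tfb2m from -1.09 to -0.37, Trmt10c from -0.998 to -0.25, Trnt1 from -1.20 to -0.27, Gfm1 from -0.88 to -0.16, Gabpa from -0.97 to -0.14 and Gabpb1 from -0.95 to -0.10. Polg ran from 0.18 to 0.69, Pprc1 from 0.10 to 1.26 and mt-Tp from 0.29 to 1.18.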
